A study of Mus musculus with 8 samples.

Results

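The collagen chain genes were followed in cells labelled as primary osteoblasts from calvaria, the flat bones of the mouse skull. Members were all rows of the count table whose gene symbol has the form Col, a number, the letter a and a number, which gave 44 of 25239 rows. The 4 control libraries carry the genotype label WT. The other 4 carry the label KO(OSX-SphK2), which names a knockout of Sphk2, the gene of sphingosine kinase 2, and Osx (osterix, Sp7), a transcription factor of the osteoblast lineage. No treatment is named, and animal age, strain, the number of animals per library and the construct behind the knockout are not given in the sources used here. By its title the series concerns neutrophil development and its regulation by osteoblasts.

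Collagens are secreted proteins of 3 chains wound into a triple helix, and each gene of the family encodes 1 kind of chain. Fibrillar collagens build the cable-like fibrils of bone, cartilage and skin. Collagen IV forms the sheet of basement membranes, collagen VI forms beaded filaments, and the fibril-associated (FACIT) chains sit on fibril surfaces. Type I collagen, made of Col1a1 and Col1a2 chains, is the main protein of bone matrix and a standard product of osteoblasts.

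Total counts ran from 14347495 to 19065421 per library. Levels are given as CPM, counts scaled to the same library size with TMM factors. For Sphk2 itself the control mean was 89.1 ± 30.8 CPM (SD, n = 4) and the knockout-labelled mean 86.3 ± 29.9 CPM (SD, n = 4), a log2 fold change of −0.05 (SE 0.30), so its count does not check the labels, and directions below are those of the labels. Both libraries numbered 4 stand apart from the other 6, as the summed level of 8 osteoclast markers shows, at 10038 CPM in control 4 and 6633 CPM in knockout-labelled 4 against 140.4 to 232.7 CPM elsewhere. The genotype comparison is therefore given with and without them. Macrophage and monocyte genes were abundant in every library, with 12 markers adding up to between 29358 and 49851 CPM. In such bulk samples fewer cells of a type and less RNA per cell cannot be told apart.

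Collagen chain transcripts were abundant and dominated by type I. In controls 1 to 4 they added up to 10784, 25852, 14632 and 6602 CPM, and to 18800.4, 16227, 14699 and 4186 CPM for knockout-labelled 1 to 4. Control 2 was the highest library, both libraries numbered 4 were the lowest, and the groups overlapped. The control mean was 14467 ± 8268 CPM (SD, n = 4) and the knockout-labelled mean 13478 ± 6422 CPM (SD, n = 4). With numbers 1 to 3 alone they were 17089 ± 7829 and 16575 ± 2073 CPM (SD, n = 3). Col1a1 and Col1a2 together made up 53.9% of the family's mean level, and between 49.2% and 59.7% in single libraries.

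**Figure D1:**
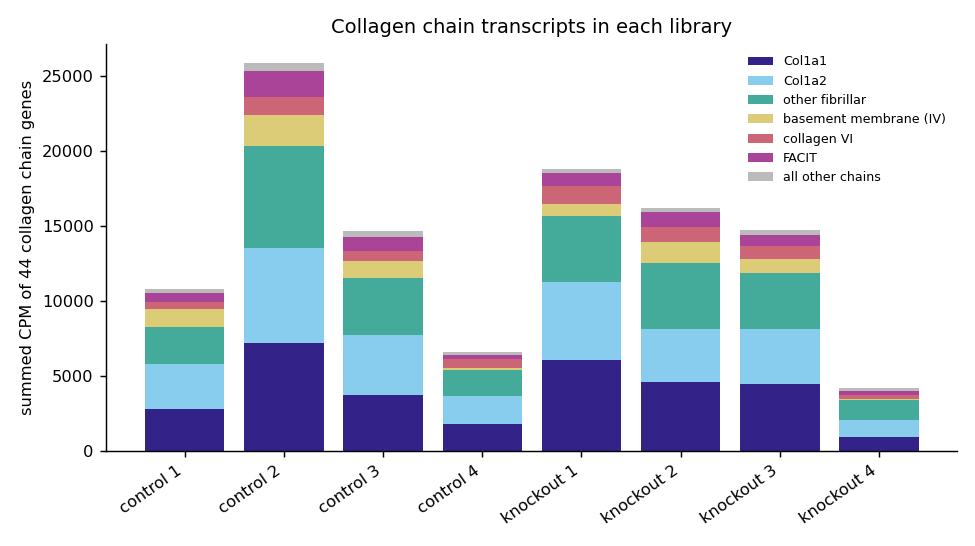
Summed level of the 44 collagen chain genes in each of the 8 libraries, in CPM from 0, with coloured blocks for Col1a1, Col1a2 and the collagen classes. Control 2 reaches 25852 CPM, while control 4 and knockout-labelled 4 stand at 6602 and 4186 CPM.

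Of the 44 members, 29 had enough counts to test and 15 did not. All 11 fibrillar genes passed the filter on low counts, with 3 of 6 collagen IV genes, 3 of 6 collagen VI genes, 6 of 9 FACIT genes, 3 of 3 short-chain genes, both multiplexins and Col7a1. None of the 4 transmembrane chains passed, nor did Col26a1 or Col28a1. Per kilobase of the principal transcript in GENCODE M21, the order began with Col1a2 at 672 ± 312 and Col1a1 at 664 ± 356 CPM per kilobase (SD, n = 8). Next came Col5a2 (146 ± 65.7), Col5a1 (132 ± 71.8), Col2a1 (130.1 ± 80.6), Col3a1 (122 ± 54.5) and Col4a1 (81.1 ± 54.8) on the same scale. Within that order the gap between neighbours was smaller than their spread over libraries, except for the step from Col1a1 to Col5a2.

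**Figure D2:**
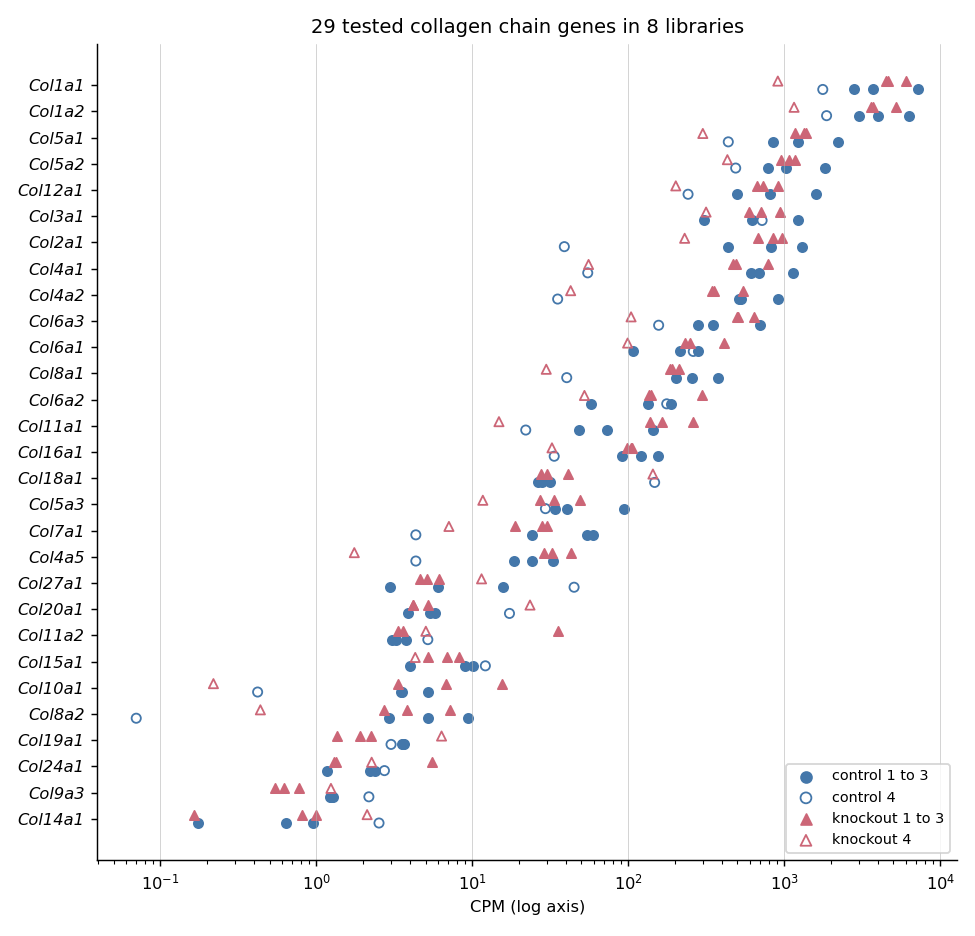
Level of each of the 29 tested collagen chain genes in the 8 libraries, in CPM on a log axis, with circles for controls, triangles for knockout-labelled libraries and open symbols for number 4. The open symbols lie left of all filled ones for 16 genes and right of them for Col14a1, Col18a1 and Col20a1.

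The comparison of genotypes asks whether the Sphk2 knockout label goes with a change in collagen transcripts. With all 8 libraries none of the 29 tested chains passed the threshold, an edgeR quasi-likelihood p adjusted over all genes under 0.05. Over all 12837 genes 0 passed as well (background 0%), so this count says nothing particular to collagens. At an unadjusted p under 0.05 there was 1 chain, Col9a3, against 4.92% of all genes, and DESeq2 called none of the 27 chains it gave an adjusted p, against 1.45% of genes (1.05% higher and 0.405% lower). The median log2 fold change was −0.17 over the 29 chains and −0.02 over all genes, with a median of −0.14 and −0.01 when libraries were paired by number. Pairing by number left 0 chains past the threshold, against 2.49% of all genes, and 3 at an unadjusted p under 0.05, against 20.9%.

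With the libraries numbered 4 left out, Col19a1 alone passed, or 1 of 29 against 14.1% of all genes. With numbers 1 to 3 also paired, 5 of 29 passed against 24.2% of all genes (12.3% higher and 11.9% lower). At an unadjusted p under 0.05 these libraries gave 2 chains without pairing, against 28.6% of all genes, and 7 with it, against 36%. Col4a1, Col4a2, Col7a1 and Col19a1 were lower and Col4a5 was higher. With both directions pooled, the chains' shares of adjusted calls (3.45% and 17.2%) lie below the background. By direction, the paired calls were 3.45% of the chains higher and 13.8% lower, so the share of lower calls was slightly above that of all genes. No chain separated the 4 controls from the 4 libraries labelled knockout, where 3.59% of all genes did. In numbers 1 to 3 only Col9a3 and Col19a1 did so, against 34.6% of all genes.

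The pairs themselves moved in different directions. In pair 1, 20 of 29 chains were higher in the library labelled knockout, with a median log2 difference of 0.45, where 49.7% of all genes were higher. In pairs 2, 3 and 4, 24, 19 and 22 chains were lower, with medians of −0.65, −0.11 and −0.43, where 50.5%, 51.8% and 47.6% of all genes were lower. Only Col8a1 and Col9a3 were lower in 4 of 4 pairs, and none was higher in 4 of 4, where 28.8% of all genes had one direction in every pair (13.4% lower and 15.4% higher). In pairs 1 to 3, 8 chains had one direction, 6 lower and 2 higher, against 55.4% of all genes (28% lower and 27.4% higher). Control 2 held the highest value of the 8 libraries for 15 of the 29 chains, against 16% of all genes, and 16 chains had both libraries numbered 4 below the other 6, against 33.8% of all genes.

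**Figure D3:**
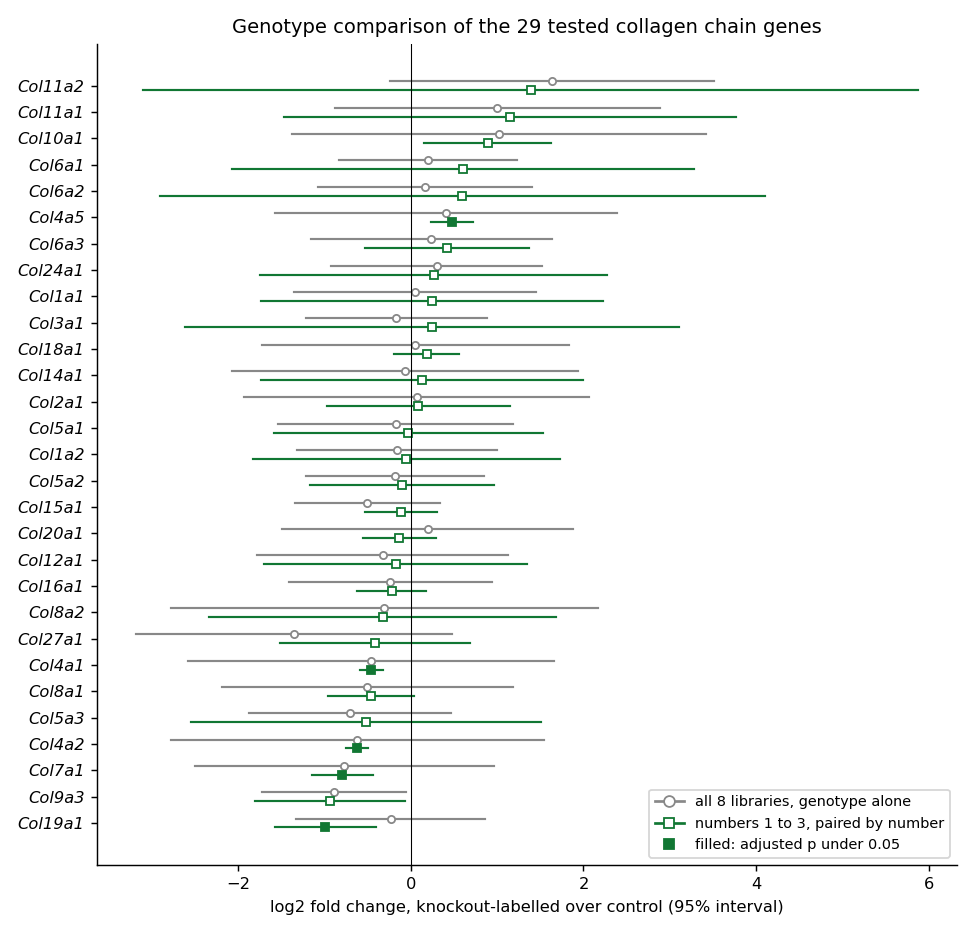
Log2 fold change of the 29 tested chains with its 95% interval, for all 8 libraries by genotype alone (grey circles) and for numbers 1 to 3 paired by number (green squares, filled where the adjusted p is under 0.05). The 5 filled squares are Col4a5 above 0 and Col4a1, Col4a2, Col7a1 and Col19a1 below it.

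Both type I chains were higher in pair 1 and lower in pairs 2 and 4. In pair 3 Col1a1 was higher, at a ratio of 1.21, and Col1a2 slightly lower, at 0.921. Col1a1 stood at 2784, 7205, 3711 and 1761 CPM in controls 1 to 4, against 6050.2, 4581, 4478 and 907 CPM in knockout-labelled 1 to 4. Col1a2 stood at 2997, 6334, 3986 and 1863 CPM against 5178, 3565, 3671 and 1153 CPM. For both chains the groups overlapped over most of their range. The log2 fold change was 0.05 for Col1a1 (SE 0.61, 95% interval −1.35 to 1.46) and −0.16 for Col1a2 (SE 0.50, interval −1.32 to 1.0), and neither passed. In numbers 1 to 3 alone, unpaired, they were at 0.14 (SE 0.38) and −0.10 (SE 0.31). Over all 8 libraries the Col1a1 interval includes a change of more than 1 log2 unit in either direction, and the Col1a2 interval does so for a fall. The ratio of Col1a1 to Col1a2 CPM was 0.929, 1.14, 0.931 and 0.945 in controls and 1.17, 1.29, 1.22 and 0.787 in knockout-labelled libraries. In numbers 1 to 3 the 3 ratios of the libraries labelled knockout lay above the 3 control ratios, and in number 4 the order was the opposite. Over all 8 libraries the groups thus overlapped. This ratio is among several computed between chains, and none of them was given a test.

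Type V, III and XI chains build and trim the same fibrils. Col5a1, which with Col5a2 nucleates type I fibrils, stood at 843, 2221, 1218 and 437 CPM in controls and 1370.4, 1340.7, 1169 and 299.7 CPM in knockout-labelled libraries. Col5a2 stood at 785, 1816, 1029 and 487 CPM against 1072, 1161, 956 and 431 CPM. Groups overlapped for both, and their log2 fold changes were −0.17 (SE 0.59) and −0.19 (SE 0.45), short of the threshold, or −0.14 (SE 0.36) and −0.19 (SE 0.32) in numbers 1 to 3. Col5a3, a rarer partner chain, was at 11.7 to 94.0 CPM with a log2 fold change of −0.71 (SE 0.51), and its ratio to Col5a1 was lower in the library labelled knockout in 4 of 4 pairs. The groups still overlapped in this ratio, at 0.028 in control 3 against 0.036 and 0.039 in knockout-labelled 1 and 4. The ratio was given no test. Col3a1, the chain of type III collagen in soft connective tissue, was at 304, 1219, 621 and 719 CPM in controls and 932, 712, 593 and 315 CPM in knockout-labelled libraries. Its log2 fold change was −0.17 (SE 0.46), and 0.06 (SE 0.54) in numbers 1 to 3. Unlike Col1a1, it was not lowest among controls in control 4, and its ratio to Col1a1 was 0.408 and 0.347 in the libraries numbered 4 against 0.109 to 0.169 elsewhere.

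Col11a1, a fibril-core chain best known from cartilage, was at 48.4, 143.6, 73.3 and 22.0 CPM in controls and 259, 164.7, 137.3 and 14.8 CPM in knockout-labelled libraries. It was higher in the library labelled knockout in pairs 1 to 3 and lower in pair 4. Its log2 fold change was 1.0 (SE 0.81), and 1.08 (SE 0.49) in numbers 1 to 3 with an adjusted p of 0.236, so it did not pass in either. Relative to Col5a1 in the same library it stood at 0.057, 0.065, 0.060 and 0.050 in controls and 0.189, 0.123, 0.117 and 0.049 in knockout-labelled libraries. The ratio thus separated the groups in numbers 1 to 3 and not in number 4. It was chosen after its values were seen and was given no test.

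**Figure D4:**
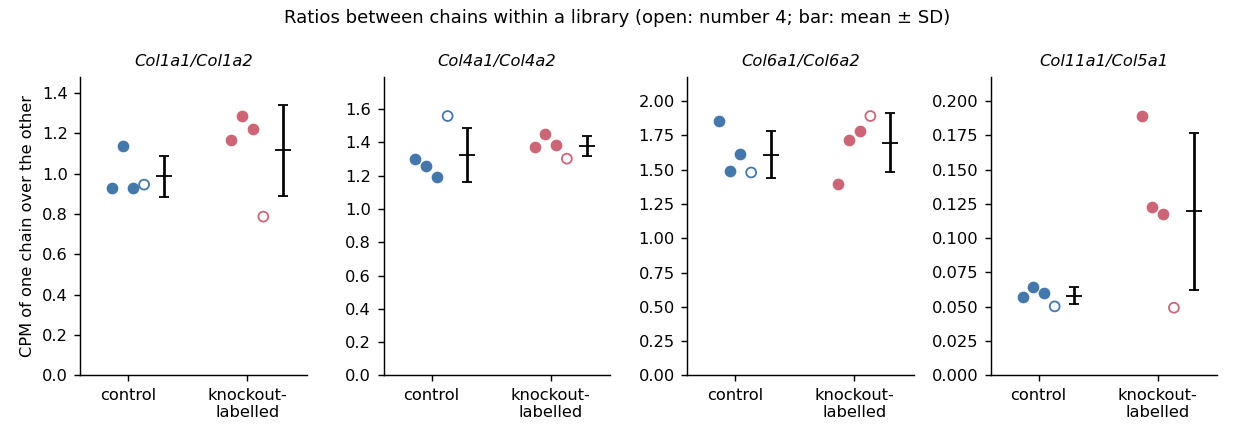
Ratio of the CPM of one collagen chain to another in each library, on linear axes from 0, with filled points for numbers 1 to 3, open points for number 4 and a bar for the mean ± SD of 4 libraries. Col4a1 over Col4a2 stays between 1.19 and 1.56 in all 8 libraries, while Col11a1 over Col5a1 runs from 0.049 to 0.189.

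Col2a1, the main collagen of cartilage, came just above Col3a1 in the order of levels per kilobase. It stood at 435, 1302, 819 and 38.8 CPM in controls and 681, 962, 846 and 229 CPM in knockout-labelled libraries. Its level in control 4 was the lowest, and the groups overlapped, with a log2 fold change of 0.07 (SE 0.86), or −0.04 (SE 0.42) in numbers 1 to 3. The defining cartilage genes were at or near 0. Acan, the cartilage proteoglycan, was at 0 in all 4 controls and at most 2.56 CPM in any library, Cnmd had 0 counts in all 8, and Sox9 was at 1.31 to 4.06 CPM. The 7 chondrocyte markers summed to 1.68 to 8.61 CPM. Other fibrillar chains were low. Col27a1 ran from 2.96 to 44.8 CPM with its highest value in control 4, Col24a1 from 1.16 to 5.52 CPM and Col11a2 from 3.04 to 35.2 CPM.

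Among the FACIT chains, Col12a1, which binds fibril surfaces in tendon and the bone lining, was the most abundant. It stood at 494, 1603, 803 and 241 CPM in controls and 733, 907, 665 and 201 CPM in knockout-labelled libraries, with a log2 fold change of −0.33 (SE 0.63), or −0.33 (SE 0.46) in numbers 1 to 3. Col16a1 stood at 91.1, 155.3, 119.9 and 33.4 CPM against 98.1, 104.9, 104.2 and 32.3 CPM, with a log2 fold change of −0.24 (SE 0.51), or −0.25 (SE 0.19) in numbers 1 to 3. Both chains overlapped between genotypes and were lowest in the libraries numbered 4. Col19a1, a FACIT chain of basement membrane zones, was at 3.65, 3.60, 3.55 and 3.01 CPM in controls and 2.23, 1.36, 1.89 and 6.34 CPM in knockout-labelled libraries, from 25 to 87 counts. In numbers 1 to 3 it fell, with a log2 fold change of −0.98 (SE 0.25, edgeR adjusted p = 0.0316), and −0.99 (SE 0.26, adjusted p = 0.0203) when paired. With number 4 included it was at −0.23 (SE 0.47) and did not pass, and knockout-labelled 4 held the highest value of the 8 libraries.

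Col9a3, a chain of the collagen IX of cartilage, was lower in 4 of 4 pairs but rests on 10 to 31 counts. It stood at 1.27, 1.24, 1.22 and 2.17 CPM in controls and 0.62, 0.54, 0.78 and 1.24 CPM in knockout-labelled libraries. Its log2 fold change was −0.89 (SE 0.36), with an edgeR adjusted p of 0.968 and 0.135 with pairing, and the exact two-sided permutation p was 0.0857 where the smallest possible is 0.0286. Its exons share 234 bases with those of Tcfl5 on the opposite strand. The use of strand in counting is not given, so it is not known how reads in those bases were counted. Col20a1 was at 3.88 to 5.72 CPM in numbers 1 to 3 and at 17.3 and 23.4 CPM in number 4, and Col14a1 was at 0.163 to 1.0 CPM and 2.52 and 2.11 CPM. Col20a1 and Col14a1 were thus highest in the libraries where Col12a1 was lowest.

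Collagen VI is assembled from Col6a1, Col6a2 and 1 further chain, mostly Col6a3. Col6a1 stood at 107, 279.7, 215 and 260.3 CPM in controls and 411, 231.5, 249 and 98.8 CPM in knockout-labelled libraries. Col6a2, its neighbour on chromosome 10, stood at 57.9, 187, 133 and 176 CPM against 294, 135, 139.6 and 52.2 CPM. The pair kept a ratio of 1.40 to 1.89 in all 8 libraries. Col6a3, on chromosome 1, stood at 278, 697, 347 and 156 CPM against 507, 639.5, 494 and 104 CPM, and its ratio to Col6a1 ranged more widely, from 0.60 in control 4 to 2.76 in knockout-labelled 2. The log2 fold changes were 0.20 (SE 0.44), 0.16 (SE 0.54) and 0.24 (SE 0.60), and none passed. In numbers 1 to 3 they were 0.57 (SE 0.43), 0.59 (SE 0.56) and 0.31 (SE 0.38), and again none passed. Pair 1 was far higher in the library labelled knockout, with a Col6a2 ratio of 5.07, and pair 4 was lower, with a ratio of 0.297.

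All 3 tested collagen IV chains passed in numbers 1 to 3 when libraries were paired by number, 2 lower and 1 higher. In that fit 24.2% of all genes passed (11.9% lower and 12.3% higher). None of the 3 chains passed there without pairing, where 14.1% of all genes did. Col4a1 and Col4a2, which together form the common basement membrane network, start head to head on chromosome 8 of GRCm38. Col4a1 runs on the minus strand from 11198423 to 11312826 and Col4a2 on the plus strand from 11312805 to 11449287, so the 2 gene models overlap by 22 bases. Their promoter windows from RefSeq (GRCm38.p6, 250 bases before to 50 after the start) are shown because this pair moved together. Capitals mark the 78 bases that both windows hold, read from opposite strands. The Col4a1 window is chr8:11312777-11313076, minus strand, and the Col4a2 window is chr8:11312555-11312854, plus strand.
Col4a1: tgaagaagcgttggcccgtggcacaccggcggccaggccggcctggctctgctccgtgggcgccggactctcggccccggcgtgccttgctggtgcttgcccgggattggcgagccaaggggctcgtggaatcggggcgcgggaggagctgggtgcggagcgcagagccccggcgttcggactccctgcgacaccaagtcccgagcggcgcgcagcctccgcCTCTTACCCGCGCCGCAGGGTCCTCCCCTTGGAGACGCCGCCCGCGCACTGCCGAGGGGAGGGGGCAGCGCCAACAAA
Col4a2: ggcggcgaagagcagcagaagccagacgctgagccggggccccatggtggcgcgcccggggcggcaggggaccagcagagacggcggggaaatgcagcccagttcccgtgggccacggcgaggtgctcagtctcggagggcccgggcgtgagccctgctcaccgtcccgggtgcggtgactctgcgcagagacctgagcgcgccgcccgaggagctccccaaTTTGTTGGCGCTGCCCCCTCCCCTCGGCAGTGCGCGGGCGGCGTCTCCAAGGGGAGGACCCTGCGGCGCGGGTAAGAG
The windows hold 74.0% and 73.7% G or C. Both contain CCAAT and GGGCGG, searched on both strands, letters present in 37.4% and 35.7% of all 32851 promoter windows of the same length.

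Col4a1 stood at 683, 1136, 611 and 54.8 CPM in controls 1 to 4, against 471, 789, 490.3 and 55.5 CPM in knockout-labelled 1 to 4. Col4a2 stood at 526, 903, 514 and 35.2 CPM against 343, 545, 355 and 42.6 CPM. Both were lower in the library labelled knockout in pairs 1 to 3, by ratios of 0.691, 0.695 and 0.802 for Col4a1 and 0.653, 0.603 and 0.690 for Col4a2. In pair 4, where both chains were at a small fraction of their other levels, the ratios were 1.01 and 1.21. The ratio of Col4a1 to Col4a2 stayed between 1.19 and 1.56 in all 8 libraries, while the chains themselves spanned a factor of 20.7 and 25.7. Within that range it was 1.19 to 1.30 in controls 1 to 3 and 1.37 to 1.45 in knockout-labelled 1 to 3. In number 4 the order was the opposite, at 1.56 in control and 1.30 in knockout-labelled. The ratio was given no test.

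With numbers 1 to 3 paired, Col4a1 fell with a log2 fold change of −0.46 (SE 0.06, edgeR adjusted p = 0.000381) and Col4a2 with −0.62 (SE 0.06, adjusted p = 3.96e-05). Without pairing, numbers 1 to 3 gave −0.47 (SE 0.33, adjusted p = 0.412) and −0.64 (SE 0.31, adjusted p = 0.245), where control 2 lay above the other controls. With all 8 libraries the values were −0.46 (SE 0.92) and −0.62 (SE 0.93), and pairing all 8 gave an adjusted p of 0.134 and 0.249. The fall of Col4a1 and Col4a2 is thus a result of numbers 1 to 3 under pairing. The libraries numbered 4 did not share it, at ratios of 1.01 and 1.21, and it was not tested in libraries beyond these 8. Markers of pericytes and smooth muscle, which also make collagen IV, summed to 1271 to 2976 CPM in controls 1 to 3 and 921 to 1727 CPM in knockout-labelled 1 to 3. In number 4 the sums were 309 CPM in control and 683 CPM in knockout-labelled. Most of each sum was Acta2, at 294 to 2681 CPM, while Rgs5 and Des were at most 1.57 and 1.58 CPM. The part of these markers in the result was not tested.

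Col4a5, whose chain joins other collagen IV networks, went the other way. It lies on the X chromosome, with its start 1309 bases from that of Col4a6, which had at most 10 counts in a library. Its RefSeq window, chrX:141475169-141475468 on the plus strand, is shown beside the pair above because the chain moved opposite to it. Capitals mark CCAAT and GGGCGG or their reverse complements, and the window holds 52.7% G or C.
Col4a5: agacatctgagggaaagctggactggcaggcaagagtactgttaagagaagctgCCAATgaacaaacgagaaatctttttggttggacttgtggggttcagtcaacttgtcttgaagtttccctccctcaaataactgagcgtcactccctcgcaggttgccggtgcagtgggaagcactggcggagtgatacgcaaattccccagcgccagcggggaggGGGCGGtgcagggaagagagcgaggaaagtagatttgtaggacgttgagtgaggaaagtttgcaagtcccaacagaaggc
Col4a5 stood at 24.2, 32.8, 18.6 and 4.34 CPM in controls and 28.9, 42.6, 32.5 and 1.75 CPM in knockout-labelled libraries. The ratios were 1.2, 1.30, 1.75 and 0.403 in pairs 1 to 4, so pair 4 again turned. With numbers 1 to 3 paired it rose with a log2 fold change of 0.48 (SE 0.11, edgeR adjusted p = 0.0114), and with all 8 libraries it was at 0.40 (SE 0.86). Relative to Col4a1 it stood at 0.029 to 0.035 in controls 1 to 3 and 0.054 to 0.066 in knockout-labelled 1 to 3. In number 4 the order was the opposite, at 0.079 in control and 0.031 in knockout-labelled, so over all 8 libraries the groups overlapped. This ratio joins chains that moved in opposite directions and was given no test. Col4a3 and Col4a4, the head-to-head pair on chromosome 1, had at most 5 and 13 counts.

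Col7a1, the chain of the anchoring fibrils that tie basement membranes to the tissue below, stood at 24.0, 59.6, 54.6 and 4.34 CPM in controls and 18.9, 27.8, 29.95 and 7.07 CPM in knockout-labelled libraries. It fell in numbers 1 to 3 when paired (log2 fold change −0.79, SE 0.14, edgeR adjusted p = 0.0104) and was at −0.77 (SE 0.75) with all 8 libraries. Col8a1, a short-chain collagen of vessel walls and the cornea, was lower in 4 of 4 pairs. It stood at 203, 373, 255 and 40.2 CPM in controls and 190.2, 209.7, 185 and 29.7 CPM in knockout-labelled libraries. Its log2 fold change was −0.50 (SE 0.73) and −0.46 (SE 0.12, edgeR adjusted p = 0.101) when all 8 libraries were paired, and −0.50 (SE 0.23) in numbers 1 to 3, so it did not pass. Col8a2 ran from 0.070 to 9.33 CPM. Col10a1, a mark of hypertrophic cartilage cells, was at 0.219 to 15.4 CPM with a log2 fold change of 1.02 (SE 1.04).

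The multiplexins carry interrupted helices and release fragments such as endostatin, which comes from Col18a1. Col18a1 stood at 28.0, 31.4, 26.3 and 147 CPM in controls and 27.5, 29.9, 40.7 and 143 CPM in knockout-labelled libraries. Both libraries numbered 4 thus held it far above the other 6, together with Col20a1 and Col14a1, whereas 34.2% of all genes were highest in both. The summed level of the 8 osteoclast markers was high in those same libraries. Among them, Nfatc1 stood at 209.8 CPM in control 4 and 99.6 CPM in knockout-labelled 4. In numbers 1 to 3 it was at 96.0 to 105.1 CPM, so it was not high in knockout-labelled 4. The part of the osteoclast markers in these collagen levels was not tested. The log2 fold change of Col18a1 between genotypes was 0.05 (SE 0.77), or 0.20 (SE 0.15) in numbers 1 to 3. Col15a1 ran from 3.97 to 12.1 CPM and was at −0.50 (SE 0.36).

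Knockout-labelled 1 held the highest value of the 8 libraries for 5 tested chains, Col11a1, Col11a2, Col24a1, Col6a1 and Col6a2, against 10.4% of all genes, and 2 untested chains were seen almost only there. Col22a1, a FACIT chain of tissue junctions, had 139 counts there (8.62 CPM) and at most 6 counts in any other library. Col13a1, a transmembrane chain, had 62 counts (3.85 CPM) and at most 3 elsewhere. Col11a2 stood at 35.2 CPM against 3.04 to 5.17 CPM in the other 7 libraries, and Col24a1, a fibrillar chain of developing bone, at 5.52 CPM against 1.16 to 2.73 CPM. Among osteoblast markers, Alpl, Ibsp, Bglap, Bglap2, Phex and Dmp1 were highest in the same library, and Runx2, Sp7 and Spp1 were not. Ibsp, the bone sialoprotein, stood at 1082 CPM against 0.656 to 49.2 CPM elsewhere, Bglap (osteocalcin) at 42.3 CPM against at most 0.582 CPM, and the osteocyte gene Dmp1 at 13.7 CPM against at most 0.778 CPM. Sp7 was at 37.2 CPM there, within the control range of 3.29 to 46.2 CPM. Spp1 (osteopontin), at 1030.1 CPM, was below its level in control 4, knockout-labelled 3 and knockout-labelled 4, and Runx2, at 29.2 CPM, was below controls 1 to 3. The part of these markers in the collagen values was not tested. The set was chosen after its values were seen. In the other 3 libraries labelled knockout, Col22a1, Col13a1, Col11a2 and Col24a1 lay within the control range. Above every control were Col11a1 in knockout-labelled 2 (164.7 CPM), Ibsp in knockout-labelled 3 (49.2 CPM) and Dmp1 in both (0.761 and 0.778 CPM). All 3 genes stayed below their level in knockout-labelled 1. The log2 fold change of Col11a2, 1.64 (SE 0.81), did not pass.

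**Figure D5:**
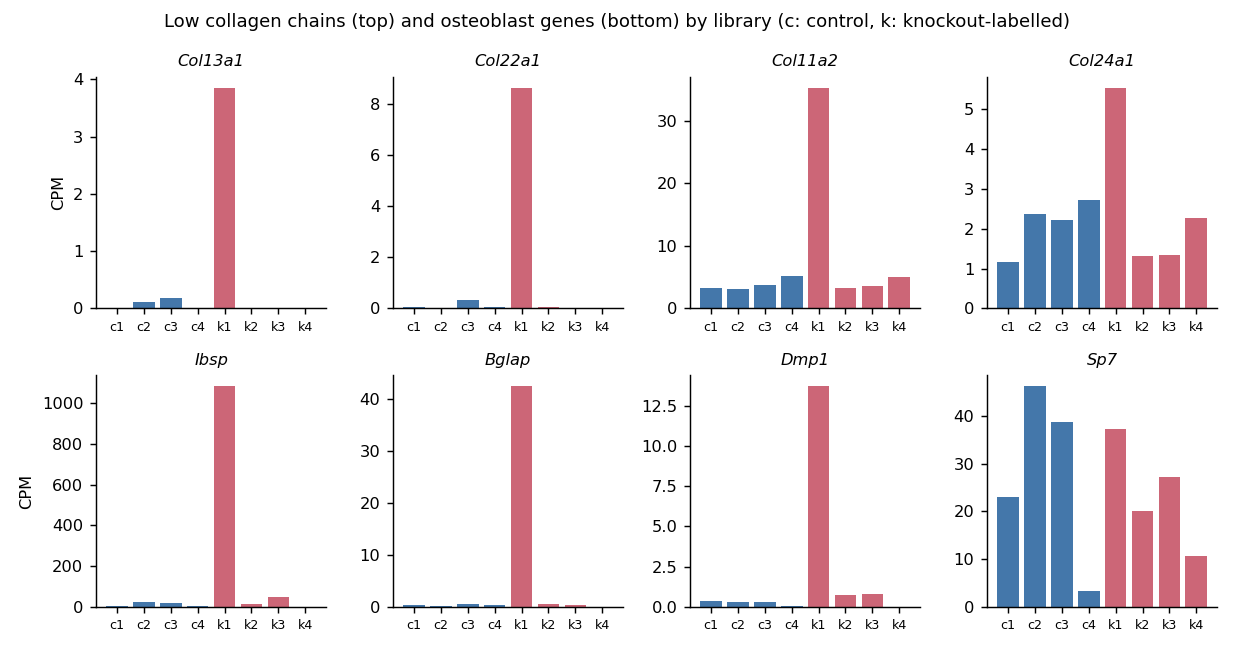
CPM of 4 low collagen chains (top) and 4 osteoblast genes (bottom) in controls 1 to 4 (c1 to c4) and knockout-labelled 1 to 4 (k1 to k4), on linear axes from 0. Col22a1 and Col13a1 reach 8.62 and 3.85 CPM in k1 and stay near 0 in the other 7 libraries, while Sp7 does not peak there.

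The other 13 untested chains were at or near 0. Col6a6 had 0 counts in all 8 libraries, which allows up to 3 counts in a library, and Col6a5, Col26a1, Col9a1, Col17a1, Col9a2, Col25a1 and Col28a1 had at most 1, 2, 4, 5, 6, 7 and 9. Col23a1 reached 16 and Col6a4 20, beside Col4a3, Col4a4 and Col4a6 above. Such counts do not show absence of a transcript, only that it was not detectable or too rare to compare at this depth.

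Genes that make, cut, bind or break collagen were read from 5 lists with 82 genes, of which 72 were tested. With all 8 libraries 0 passed. When paired, 1 was higher and 4 were lower, against 1.31% and 1.18% of all genes. In numbers 1 to 3 without pairing, 4 were higher and 14 lower, against 7.78% and 6.29% of all genes. The median log2 fold change of the 72 was −0.18 both with all 8 libraries and in numbers 1 to 3, where the median of all genes was −0.02 and −0.0046.

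Tested enzymes and chaperones that modify, fold or export the chains numbered 22. Of these, 2 rose and 4 fell in numbers 1 to 3, against 7.78% and 6.29% of all genes. Plod3, a lysyl hydroxylase and glycosyltransferase, fell also in all 8 libraries when paired (−0.36, SE 0.06, edgeR adjusted p = 0.0412). Its values were 194, 222, 219 and 328 CPM in controls and 149, 169.7, 165 and 277 CPM in knockout-labelled libraries. P4ha2, a prolyl hydroxylase subunit (−0.46, SE 0.11), and the prolyl 3-hydroxylase P3h3 (−0.54, SE 0.14) fell in numbers 1 to 3, while the disulfide isomerase Pdia3 rose (0.45, SE 0.07). Of 12 tested genes for propeptide removal and crosslinking, Bmp1, which cuts the C-terminal propeptide, fell in numbers 1 to 3 (−0.70, SE 0.16) and in all 8 when paired (−0.65, SE 0.11, edgeR adjusted p = 0.0463). The lysyl oxidase relative Loxl3 fell in numbers 1 to 3 only (−0.46, SE 0.10, against −0.25, SE 0.18 in all 8 when paired).

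Of 10 tested collagen receptors, 2 rose and 1 fell in numbers 1 to 3, against 7.78% and 6.29% of all genes. Itga11, the integrin chain for fibrillar collagen on mesenchymal cells, stood at 267, 502.5, 413 and 100.1 CPM in controls and 147.5, 222, 225 and 54.8 CPM in knockout-labelled libraries. It was lower in each pair, and it fell when all 8 were paired (−0.95, SE 0.07, edgeR adjusted p = 0.0241). Without pairing in numbers 1 to 3 it was at −0.99 (SE 0.29, adjusted p = 0.0859). Its partner Itgb1 fell in numbers 1 to 3 (−0.59, SE 0.09), and Adgrg1, a receptor for collagen III, rose there (1.2, SE 0.12) and with pairing (1.2, SE 0.13). Adgrg1 was at 17.6, 17.2 and 15.7 CPM in knockout-labelled 1 to 3 against 6.63 to 8.04 CPM in controls 1 to 3, and at 1.89 and 0.839 CPM in pair 4. The endocytic receptor Mrc1, also a macrophage marker, rose in numbers 1 to 3 (0.44, SE 0.08).

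Of 11 tested genes of collagen breakdown, 3 fell in numbers 1 to 3 and none rose, against 6.29% and 7.78% of all genes. The 3 were the collagenase Mmp8 (−1.50, SE 0.08) and the inhibitors Timp1 (−0.62, SE 0.10) and Timp2 (−0.39, SE 0.10). Mmp8 was at 378, 314, 348 and 67.1 CPM in controls and 116, 125, 125 and 128 CPM in knockout-labelled libraries, so pair 4 was reversed. Of 17 tested fibril and basement membrane partners, 4 fell in numbers 1 to 3, against 6.29% of all genes. The 4 were fibronectin Fn1 (−0.62, SE 0.13), biglycan Bgn (−0.78, SE 0.16) and the laminin chains Lama2 (−0.96, SE 0.19) and Lamb1 (−0.83, SE 0.13). Lama2 fell also when all 8 were paired (−0.92, SE 0.13, edgeR adjusted p = 0.0385), and Fn1 did not (−0.53, SE 0.10, adjusted p = 0.056).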

How the data were processed

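Polyadenylated RNA was sequenced in 8 libraries, 4 per genotype. The authors deposited 1 table of raw read counts, with a row for each gene symbol. Per the submitters' processing notes the authors used STAR 2.7.11b and featureCounts 2 with GRCm38 (mm10). The annotation, the use of strand and the treatment of multiple alignments are not given in the sources used here.

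Genes were filtered with filterByExpr, scaled with TMM and tested with edgeR 4.0.16 (R 4.3.3), quasi-likelihood with robust dispersion, genotype alone, on 12837 genes, with Benjamini-Hochberg adjustment and a threshold of 0.05. SEs were taken from the fold change and its F statistic. Log2 CPM used a prior count of 2. Intervals are 95%. Nothing in the labels says how libraries relate to animals, and the p-values reflect only how these libraries vary, which may be technical. Library pairs within a group differed beyond sampling noise (chi-square per degree of freedom 8.56 to 307). The code was tested on simulated data.

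Same-numbered libraries were checked for pairing. Deviations from group means correlated with r of 0.460 to 0.829 across genes, or 0.161 to 0.376 in numbers 1 to 3 alone, all above 0.1, so the numbers were taken as pairs, from the data and not from a label. With all 8 libraries unlike numbers reached 0.572, so that minimum separates little there.

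Alternatives were pairing, leaving out libraries or numbers, upper-quartile and RLE factors, DESeq2 1.42.0, limma-voom (limma 3.58.1) and 2 other filters. Members, lists and named genes were chosen with earlier results of these data known. Members with a mean of at least 50 CPM, or past the threshold with or without pairing or in numbers 1 to 3, are given by library, and other tested members by range. Col4a5, Col7a1, Col9a3 and the low chains high in knockout-labelled 1 (Col11a2, Col13a1, Col22a1 and Col24a1) were added after their values were seen. Col11a1, Col18a1, Col6a1 and Col6a2 were named by the level rule. From each partner list up to 4 genes past the threshold with the smallest paired p are named. DESeq2 gave no adjusted p for 736 genes. Symbols of all 44 members matched GENCODE M21, and 35 had a RefSeq promoter window. 1 osteoblast marker is not reported here.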

Additional observations from a re-analysis of the deposited data

Results flagged for a closer look

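Of 62 groups of 4 libraries examined, 12 held a library far from the other 3 by Dixon's ratio. Number 4 accounts for 8 of these 12. Chance gives about 1 in 20 for groups chosen without sight of their values. Here Col22a1 and Col13a1 were added after their values were seen, and number 4 was already known to stand apart. The count therefore cannot be compared with that rate. Col18a1 stood at 147 CPM in control 4 and 143 CPM in knockout-labelled 4, against 26.3 to 31.4 and 27.5 to 40.7 CPM in the rest of each group. Col20a1 stood at 17.3 and 23.4 CPM in the same libraries, against 3.88 to 5.72 and 4.13 to 5.21 CPM. Control 4 was also apart for Col9a3, at 2.17 CPM against 1.22 to 1.27, and for Col19a1, at 3.01 CPM against 3.55 to 3.65. Knockout-labelled 4 was low for Col16a1, at 32.3 CPM against 98.1 to 104.9, and for Col8a1, at 29.7 CPM against 185 to 209.7.

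Knockout-labelled 1 was apart for Col11a2 at 35.2 CPM, against 3.31 to 5.03 in its group, and for Col22a1 and Col13a1 at 8.62 and 3.85 CPM, against at most 0.0543 and 0. Control 2 was apart for Col5a3, at 94.0 CPM against 29.4 to 40.3.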

How the results depend on the processing

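With all 8 libraries no alternative scaling, filter or tool called a collagen chain, and the chains' median log2 fold change ranged from −0.44 to 0.23 over all alternatives. The replicate block (pairing by number) with number 4 left out called 1 higher and 4 lower, and leaving out libraries without pairing gave 0 to 1 lower. Partner genes gave 1 higher and 4 lower with the block, 7 and 27 with the block without number 4, and 0 to 4 higher and 0 to 14 lower when libraries were left out. All genes gave 168 higher and 151 lower with the block, 1593 and 1539 with the block without number 4, 127 and 49 with DESeq2, 25 and 13 without control 4, 17 and 7 without knockout-labelled 4, and 0 to 1005 and 0 to 812 over all libraries left out. Sphk2 ranged from −0.32 to 0.21 when libraries were left out, with 0.0052 in the block without number 3.

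For 19 named chains and 23 alternatives, 62 of 437 log2 fold changes changed sign, in 15 chains. No chain at all had passed the threshold with all 8 libraries. Among the 15 were Col4a1, Col4a5 and Col19a1, which passed in numbers 1 to 3 when paired. Col1a1 was at −0.062 with the block and −0.062 with limma-voom, −0.45 with the block without number 1 and −0.18 without number 3. With the block, Col6a2 was at −2.8e-05, and without number 1 Col6a1, Col6a2 and Col6a3 were at −0.48, −0.70 and −0.066. With the block without number 2, Col12a1, Col3a1, Col5a1 and Col5a2 were at 0.018, 0.11, 0.040 and 0.062. With the block without number 3, Col18a1, Col4a5 and Col6a2 were at −0.046, −0.025 and −0.034, and without number 4 Col3a1 was at 0.24. Leaving out libraries moved Col12a1 from −0.63 to 0.30, Col16a1 from −0.53 to 0.064, Col18a1 from −0.83 to 1.07, Col19a1 from −0.98 to 0.029, Col1a1 from −0.35 to 0.55, Col1a2 from −0.54 to 0.21, Col2a1 from −0.33 to 0.66, Col3a1 from −0.66 to 0.23, Col4a1 from −0.87 to 0.0076, Col5a1 from −0.46 to 0.33, Col5a2 from −0.42 to 0.24, Col6a1 from −0.38 to 0.57, Col6a2 from −0.60 to 0.59 and Col6a3 from −0.018 to 0.75. The block fits without number 1, 2 or 3 were chosen after seeing the data. The cause of these shifts was not tested, and low counts limit Col9a3, Col14a1, Col19a1 and Col8a2.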

Other observations

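Decorin (Dcn) and lumican (Lum), small proteoglycans that bind collagen fibrils and are common in connective tissue cells, were near 0 in most libraries. Dcn stood at 22.1 CPM in knockout-labelled 1 and 16.2 and 12.0 CPM in control 4 and knockout-labelled 4, and at most 0.272 CPM in the other 5. Lum stood at 11.7 CPM in knockout-labelled 1 and at most 0.420 CPM elsewhere. Biglycan, of the same family, stood at 377 to 2360.1 CPM in all 8 libraries.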
